A study of Homo sapiens with 2 samples.

Results

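Human genome annotations still carry many genes that are known only by the name of the genomic clone in which they were found, such as RP11-867G23.4, CTD-2031P19.4 or AC013394.2. The transcripts described here are the genes of this naming style that reached at least 1 FPKM in both of the libraries of an RNA immunoprecipitation experiment, FPKM being a read density, the number of sequenced fragments corrected for transcript length and for the total of mapped fragments. The deposited table listed 18781 genes, 2740 of them had a clone-based name and 191 of these were at 1 FPKM or more in both libraries. These 191 members were chosen by their FPKM values in both libraries, so their levels and ratios are given as a description and no test was run on them.

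The material was T47D, an established human line of luminal breast cancer cells with an estrogen receptor. The cells carried the WT genotype in both groups, and lysates were precipitated with beads that bore either an anti-IMP1 antibody or a normal IgG as the control. RNA recovered from the beads was sequenced, with 1 library for each antibody, so no value below has a replicate check and differences are described by size alone. The question of the comparison was which RNAs came down with IMP1, and the IgG library gives the background measured in the same way. Recovery on the beads is the quantity measured, and a difference in it cannot be told apart from a difference in the amount or integrity of RNA that entered each tube.

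IMP1 is an RNA-binding protein that accompanies many mRNAs in the cytoplasm and takes part in their localization, stability and translation. Clone-named genes are a mixed class. Some are long noncoding RNAs (lncRNAs), which are transcribed like mRNAs but are not known to encode a protein, and these include antisense RNAs that run against a neighbouring gene and divergent RNAs that leave the same promoter in the other direction. Others are pseudogenes, among them processed copies of an mRNA that were pasted back into the genome. Many clone-named genes are short fragments or readthrough models inside a well-known gene.

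Of the 191 members, 76 could be given a class from RefSeq through their Ensembl identifier and current symbol. These were 33 lncRNAs, 38 pseudogenes and 5 protein-coding genes. The other 115 (60.2%) had no class. For 85 of these the current symbol was still the Ensembl identifier, for 27 the identifier was not matched in the table of current names, and 3 had a current symbol without a class. The positions in the deposited table, which are in hg19, are joined spans of overlapping genes rather than the ends of one gene, and 154 members (80.6%) shared their span with at least 1 other gene, compared with 47.6% of all genes in the table. A gene that was not clone-named stood in the span of 144 members. The strand used in counting was not given in the sources used here, so reads of a member and of a gene in the same span cannot be told apart with certainty. Chromosomes 17 and 19 held 19 members each and chromosome 12 held 16.

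RefSeq promoter windows were matched for 28 members, and 4 are printed because the results below return to them. CHASERR (listed as AC013394.2, chr15:92882593-92882892, plus strand) was the lncRNA member with the highest level in the IgG library. FAM111A-DT (AP001258.4, chr11:59142759-59143058, minus strand) and C2orf74-DT (AC016747.3, chr2:61144926-61145225, minus strand) are divergent transcripts with ratios in opposite directions. SNHG19 (RP11-304L19.5, chr16:2155309-2155608, minus strand) hosts small nucleolar RNAs in its introns. The coordinates are those of GRCh38.p14. Each sequence runs 5′ to 3′ on the strand of the gene, with 250 bases before the start in lower case and the first 50 transcribed bases in capitals.
CHASERR: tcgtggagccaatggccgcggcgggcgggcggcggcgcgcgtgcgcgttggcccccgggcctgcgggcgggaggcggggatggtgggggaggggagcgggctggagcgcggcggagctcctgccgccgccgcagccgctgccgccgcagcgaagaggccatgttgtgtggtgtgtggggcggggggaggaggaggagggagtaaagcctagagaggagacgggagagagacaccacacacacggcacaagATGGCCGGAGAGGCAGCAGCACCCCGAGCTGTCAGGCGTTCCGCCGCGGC
FAM111A-DT: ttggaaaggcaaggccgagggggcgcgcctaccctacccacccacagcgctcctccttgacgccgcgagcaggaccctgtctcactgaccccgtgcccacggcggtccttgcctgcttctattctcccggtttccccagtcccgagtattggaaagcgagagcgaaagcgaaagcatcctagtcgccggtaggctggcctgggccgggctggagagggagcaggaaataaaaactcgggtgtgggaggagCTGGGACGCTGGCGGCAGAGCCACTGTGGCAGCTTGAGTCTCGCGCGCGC
SNHG19: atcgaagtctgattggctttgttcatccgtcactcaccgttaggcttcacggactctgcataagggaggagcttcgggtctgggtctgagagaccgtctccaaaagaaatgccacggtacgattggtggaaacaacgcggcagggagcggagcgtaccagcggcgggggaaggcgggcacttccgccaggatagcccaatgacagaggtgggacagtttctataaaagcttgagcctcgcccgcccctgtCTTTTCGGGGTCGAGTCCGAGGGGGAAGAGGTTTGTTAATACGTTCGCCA
C2orf74-DT: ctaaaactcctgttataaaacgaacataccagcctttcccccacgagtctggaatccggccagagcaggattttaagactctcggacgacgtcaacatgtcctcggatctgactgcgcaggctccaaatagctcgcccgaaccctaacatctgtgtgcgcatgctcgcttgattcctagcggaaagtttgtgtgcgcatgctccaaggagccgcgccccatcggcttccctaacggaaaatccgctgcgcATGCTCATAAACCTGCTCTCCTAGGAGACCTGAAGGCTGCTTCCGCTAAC

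The window of CHASERR was rich in G and C at 74.7%, that of FAM111A-DT had 65.0%, that of SNHG19 57.0% and that of C2orf74-DT 54.3%. Over the 28 matched members the median was 64.3%, compared with 58.3% over all 27305 windows of the RefSeq table. The motif GGGCGG, searched on both strands and known as a GC box, was found in 21 of the 28 windows (75.0%) and in 44.6% of all windows. CCAAT on either strand was found in 16 (57.1%) compared with 35.7% of all, and TATAAA in 4 (14.3%) compared with 12.0%. The hexamer ACACCC, which the study examined as an IMP1 contact, was found on either strand in 2 member windows (7.14%) compared with 15.3% of all windows. FAM111A-DT carries it 1 time, on the strand opposite to the gene and before the start, so outside the transcribed bases. In the first 50 transcribed bases, read on the RNA strand, ACACCC was found in 0 of the 28 members and in 0.930% of all genes. These are counts of letters in a window at the start of each gene, and the rest of each transcript was not searched. The 28 members were detected in both libraries, whereas the windows of the RefSeq table were not filtered by detection. The part of that filter in these differences was not tested.

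Detection was less frequent among clone-named genes than over the whole table. The 191 members were 6.97% of the 2740 clone-named genes, whereas 36.8% of all genes were at 1 FPKM or more in both libraries. Another 349 clone-named genes (12.7%) reached 1 FPKM with the IMP1 antibody alone, compared with 15.5% of all genes. With IgG alone 314 (11.5%) reached it, compared with 9.58% of all genes. The remaining 1886 (68.8%) reached it in neither, compared with 38.1% of all genes. Of the 349, 305 were listed at 0 in the IgG library, and over all genes 2062 of 2913. Of the 314, 141 were listed at 0 in the IMP1 library, and over all genes 475 of 1799. Other families of noncoding names were detected somewhat more often, with 14 of 115 LINC-named genes (12.2%) and 46 of 302 antisense-named genes (15.2%) at 1 FPKM or more in both.

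The threshold fell within a continuous range of values. The members just inside it were AC138783.12 with 1.004 FPKM with the IMP1 antibody and 2.72 FPKM with IgG, AL034548.1 with 1.01 and 2.36 FPKM, and RP11-255H23.2 with 1.01 and 1.25 FPKM. Just outside were CTD-2270L9.4 with 0.989 and 17.3 FPKM, AC004797.1 with 0.979 and 1.02 FPKM, and RP11-98D18.9 with 0.976 and 2.12 FPKM. In each of these 6 genes the IMP1 value decided membership, and the genes on either side of it differed by a few hundredths of an FPKM.

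Most members were at a low level in both libraries, and so were most genes detected in both. With the IMP1 antibody the members' FPKM ran from 1.004 to 383, with a median of 3.78. With IgG their range was 1.14 to 947, with a median of 8.32. Over all 6909 genes at 1 FPKM or more in both libraries, the medians were 5.0 and 9.82 FPKM. Summed over the members, the level was 2204 FPKM with the IMP1 antibody and 3841 FPKM with IgG. Because the IgG values of the whole table summed to far more, these sums were 0.623% of the IMP1 library and 0.296% of the IgG library. Members at 10 FPKM or more in both libraries numbered 33, and 28 of them shared their span with another gene, beside 80.6% of all members.

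The libraries were compared as log2 of the IMP1 value over the IgG value, with 0.1 FPKM added to each. The median log2 ratio of the members was -0.91, the quartiles were -1.95 and 0.17, and the extremes were -4.39 and 3.65. By this measure 17 members (8.90%) were at least 2-fold higher with the IMP1 antibody, beside 11.5% of the 6909 genes at 1 FPKM or more in both libraries. At least 2-fold lower were 88 members (46.1%), beside 44.0% of all such genes. The other 86 lay within 2-fold. The median over all such genes was -0.78, so the members lay close to the rest of the table, and since the rule used both values nothing further was read from these shares. The 14 LINC-named genes had a median of -1.21 with 0 higher and 10 lower, and the 46 antisense-named genes had a median of -1.28 with 2 higher and 26 lower.

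**Figure D1:**
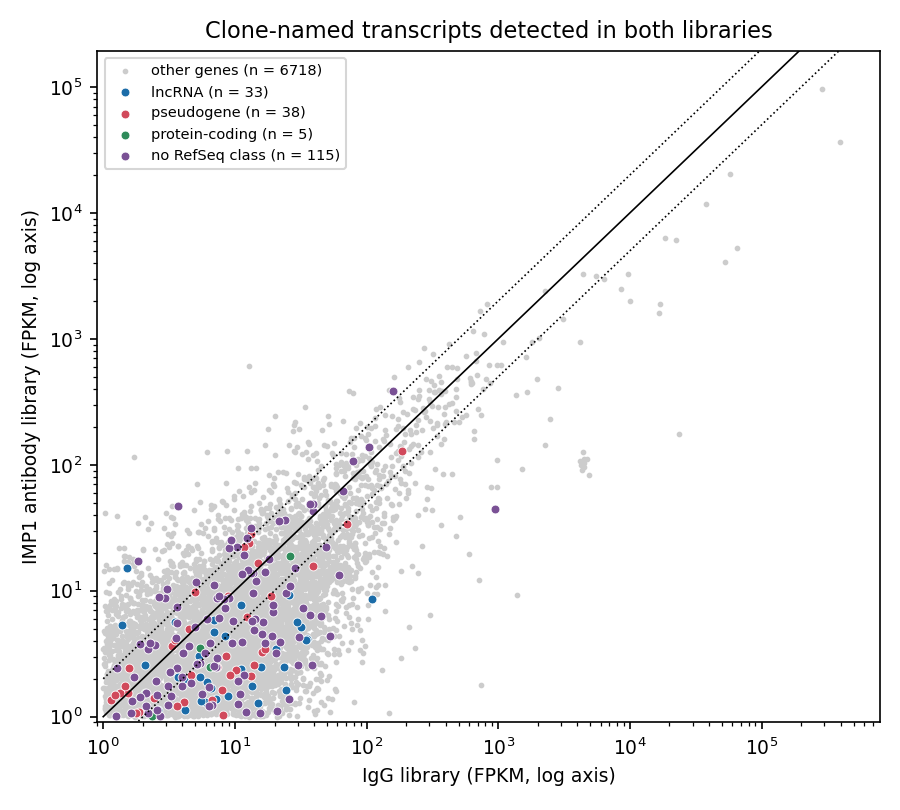
Level of each gene at 1 FPKM or more in both libraries, with the IgG library on the horizontal and the IMP1 antibody library on the vertical log axis (FPKM). Coloured points are the 191 members by RefSeq class, grey points the other genes, the solid line equal values and the dotted lines 2-fold differences, and the members lie inside the grey cloud with 134 of them below the line of equal values.

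The direction of a ratio depended on how the libraries were scaled. The FPKM values of the IMP1 library summed to 353900 and those of the IgG library to 1298000, of which the ribosomal RNAs of the mitochondrion made up 37.7% and 52.5%. Genes listed at 0 numbered 1202 and 7270. Setting the median ratio to 1 raises the IMP1 values by 0.79 on the log2 scale, and somewhat less in the ratios of scarce genes because of the added 0.1 FPKM. After it 45 members were 2-fold higher, beside 25.0% of the 6909 genes detected in both libraries, and 53 were lower, beside 24.9% of those genes. Setting the sums equal raises the IMP1 values by 1.88, after which 94 members were higher, beside 51.6% of those genes, and 17 were lower, beside 7.96%. With equal sums 37 of the 88 lower members had a ratio above 1, so most of the smaller negative ratios given below change sign on that scale. Both scalings raise the IMP1 values, so all of the 17 higher members stayed higher by construction and the lower count could only fall. Of the 88 lower members 53 were still 2-fold lower after the median scaling, and 17 were so with equal sums.

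The cells in the tubes were compared with marker genes. All 12 luminal breast markers were measured, 7 were at least 2-fold higher with the IMP1 antibody and 0 lower, and their summed levels were 1249 FPKM with IMP1 and 563 FPKM with IgG, where TFF1 and TFF3 were listed at 0. Their single levels ran from 0.869 to 371 FPKM with IMP1 and from 0 to 226 FPKM with IgG. All 8 mesenchymal markers were lower with IMP1, with a sum of 1.31 FPKM and 5 genes at 0, compared with 149 FPKM and a range of 2.96 to 37.5 FPKM with IgG. Of 8 blood cell markers only 3 were listed, where genes listed at 0 in both libraries numbered 0. Of these 3, 2 were lower. CD74 was at 6.42 FPKM with IMP1 and 305 FPKM with IgG, and HLA-DRA was at 0 and 17.4 FPKM. The other, CD14, was at 0.103 FPKM with IMP1 and listed at 0 with IgG. Its ratio above 2-fold thus rests on the 0.1 FPKM added to each value. All 8 mesenchymal markers, which a culture of T47D cells should lack, were thus present in the IgG library. Of the blood cell markers only CD74 and HLA-DRA were. These markers moved with the same comparison as the members, and their part in the members' ratios was not tested.

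By RefSeq class the lncRNA members stood lowest. The 33 lncRNAs had a median log2 ratio of -1.92, with 23 (69.7%) at least 2-fold lower with the IMP1 antibody and 2 higher. The 76 lncRNAs without a clone name that were at 1 FPKM or more in both libraries had a median of -1.34, with 45 lower (59.2%) and 3 higher. The 38 pseudogenes had a median of -0.73 with 17 lower (44.7%) and 2 higher, the 5 protein-coding members a median of -0.62 with 2 lower, and the 115 members without a class a median of -0.73 with 46 lower and 13 higher (11.3%). The lncRNAs thus lay below the other members by more than 1 log2 unit at the median, whereas the unclassified members lay close to all genes.

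**Figure D2:**
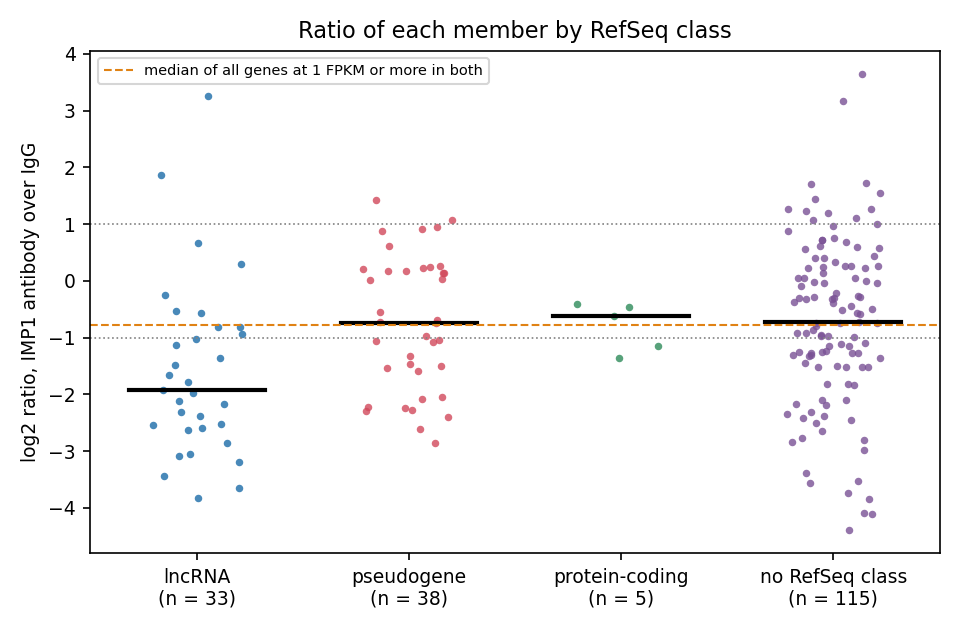
Log2 ratio of the IMP1 antibody library over the IgG library for each of the 191 members by RefSeq class, on the deposited scale. Points are genes, black bars the class medians (-1.92 for lncRNA, -0.73 for pseudogenes, -0.62 for protein-coding genes and -0.73 without a class), the orange line the median of all genes at 1 FPKM or more in both libraries (-0.78), and the dotted lines 2-fold differences.

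Among the lncRNA members the highest IgG level belonged to CHASERR, which is transcribed just upstream of the chromatin remodeller gene CHD2 and restrains its expression. It was at 8.66 FPKM with the IMP1 antibody and 110 FPKM with IgG (log2 ratio -3.65). CHD2 itself, in the same span, was at 1.83 and 20.1 FPKM, a log2 ratio of -3.39, so the lncRNA and its neighbour stood equally low. LINC01278 (RP11-357C3.3) was lower still, with 1.63 FPKM with IMP1 and 24.4 FPKM with IgG (log2 ratio -3.82). EMSLR (RP11-132A1.4), a lncRNA named for stabilizing the mRNA of the transcription factor E2F1, was at 1.29 and 15.1 FPKM, a log2 ratio of -3.44. These 3 RNAs were each more than 10-fold scarcer with IMP1, although the IMP1 values lie only somewhat above the 1 FPKM limit for the last pair.

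Divergent transcripts, which start close to a protein-coding gene and run away from it, allow a comparison of both directions of one promoter. The 7 members with a divergent symbol had a median log2 ratio of -1.92, with 5 lower and 1 higher. For all genes at 1 FPKM or more in both libraries the shares were 44.0% lower and 11.5% higher. FAM111A-DT starts 46 bases from FAM111A, which encodes a protease of the nucleus. The divergent RNA was at 2.47 FPKM with IMP1 and 15.9 FPKM with IgG (log2 ratio -2.63), while FAM111A was at 10.5 and 11.0 FPKM, a log2 ratio of -0.06. The protein-coding RNA was thus at nearly the same level in both libraries and its divergent partner was not.

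BTG1-DT starts 237 bases from BTG1, an antiproliferative gene. It was at 2.41 FPKM with IMP1 and 11.2 FPKM with IgG, and BTG1 was at 14.5 and 36.7 FPKM, giving log2 ratios of -2.17 and -1.33. AKAP1-DT (RP11-166P13.3), 206 bases from the mitochondrial anchoring protein gene AKAP1, was at 1.68 and 6.64 FPKM, while AKAP1 was at 4.11 FPKM with IMP1 and listed at 0 with IgG. In both of these pairs the divergent RNA stood lower than its partner. SLC12A2-DT (CTC-228N24.3), 589 bases from the ion transporter gene SLC12A2, was the reverse, at 1.98 and 4.12 FPKM (log2 ratio -1.02) beside 0.921 and 5.71 FPKM (log2 ratio -2.51). MVP-DT (AC009133.14), 25 bases from the vault protein gene MVP, was at 7.72 and 11.1 FPKM, while MVP was at 0.221 and 0.110 FPKM. C2orf74-DT, 139 bases from C2orf74, was the divergent RNA in the other direction, with 5.35 FPKM with IMP1 and 1.39 FPKM with IgG and a log2 ratio of 1.87. C2orf74 was at 0.784 FPKM with IMP1 and listed at 0 with IgG.

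Antisense symbols were held by 17 members, with a median log2 ratio of -1.66, 11 lower (64.7%) and 1 higher. Among all 6909 genes at 1 FPKM or more in both libraries 44.0% were lower and 11.5% higher. The 46 antisense-named genes without a clone name were also mostly lower, with 26 (56.5%) and a median of -1.28. BSG-AS1 (AC009005.2) runs against BSG, which encodes the surface glycoprotein basigin. It was at 1.46 FPKM with IMP1 and 8.84 FPKM with IgG (log2 ratio -2.52), while BSG was at 113 and 105 FPKM. ILRUN-AS1 (RP11-140K17.3) was at 1.77 and 13.4 FPKM, a log2 ratio of -2.86, and the gene in its span, C6orf106, was at 8.78 and 2.55 FPKM, a log2 ratio of 1.74. In these pairs the antisense RNA was lower with IMP1 and the sense gene was level or higher.

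MIF-AS1 (AP000350.4) was the antisense member at least 2-fold higher, with 15.2 FPKM with IMP1 and 1.51 FPKM with IgG (log2 ratio 3.25). MIF, a secreted cytokine gene in the same span, was at 107 and 42.0 FPKM, a log2 ratio of 1.34, so both were higher and the antisense RNA more so. PSMA3-AS1 (RP11-349A22.5) was at 4.67 and 6.97 FPKM, a log2 ratio of -0.57, while the proteasome subunit gene PSMA3 was at 34.3 and 131 FPKM, a log2 ratio of -1.93. TNS2-AS1 (RP11-983P16.4) was at 9.17 and 25.8 FPKM, a log2 ratio of -1.48, in a span whose most abundant gene was the translation initiation factor EIF4B at 71.3 and 14.1 FPKM. A member and its neighbour could therefore differ in either direction.

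Other lncRNA members with a known role were also low with IMP1. SNHG19 was at 5.61 FPKM with IMP1 and 29.5 FPKM with IgG (log2 ratio -2.38). MINCR (RP13-582O9.5), a lncRNA induced by MYC, was at 5.12 and 31.5 FPKM, a log2 ratio of -2.60. CHROMR (AC009948.5), a lncRNA of cholesterol metabolism, was at 1.34 and 5.57 FPKM, a log2 ratio of -1.98. SNHG19 and MINCR were alone in their spans. In contrast LINC02381 (RP11-834C11.4) was at 2.58 and 2.07 FPKM and NUTM2B-AS1 (RP11-773D16.1) at 5.66 and 3.52 FPKM, and along with C2orf74-DT and MIF-AS1 these were the 4 lncRNA members with a ratio above 1.

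The lncRNAs that stay in the nucleus were examined beside the members. Of 4 such genes 3 were at least 2-fold lower with IMP1. MEG3, 1 of these 3, was listed at 0 with IMP1 and at 1.06 FPKM with IgG. KCNQ1OT1, which was not lower, was near 0 in both libraries. MALAT1 was at 9.32 FPKM with IMP1 and 1380 FPKM with IgG (log2 ratio -7.19), and NEAT1 was at 5.20 and 211 FPKM, a log2 ratio of -5.31. The lncRNA members lay in the same direction at smaller ratios, and whether nuclear RNA differed between the tubes was not tested. Of 10 transcripts known as IMP1 targets 9 were measured, 1 was higher and 6 were lower, with a median log2 ratio of -1.78. ACTB, the best known of them, was at 716 and 1634 FPKM. The higher one, H19, was at 4.19 FPKM with IMP1 and listed at 0 with IgG. Of the 6 lower, BTRC and IGF2 were under 1 FPKM with IMP1, at 0.712 and 0.0432 FPKM. Of all genes at 1 FPKM or more in both libraries 11.5% were higher and 44.0% lower, with a median of -0.78.

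The 10 lowest members by ratio were led by RP11-777B9.5, at 45.0 FPKM with IMP1 and 947 FPKM with IgG, which is 21.1-fold less. It is alone in a span of only 177 bases on chromosome 4 (hg19, 78929666 to 78929842), and FPKM of so short a transcript rests on a read number that is not known here. AC023490.1 followed with 1.39 and 25.7 FPKM, a log2 ratio of -4.11. EPC1-AS2 (RP11-135A24.4) was at 1.12 and 20.8 FPKM, a log2 ratio of -4.10, while EPC1 in the same span was at 1.75 FPKM with IMP1 and listed at 0 with IgG. Both of the latter RNAs were near the detection limit with IMP1 and well above it with IgG.

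RP11-74H8.1 was at 2.59 FPKM with IMP1 and 38.4 FPKM with IgG (log2 ratio -3.84), whereas the calcium channel subunit gene CACNG4 in the same span was at 4.33 and 4.53 FPKM. AC079250.1, alone in its span, was at 1.07 and 15.4 FPKM, and AC009505.2, in the span of the adaptor gene NCK2, at 4.36 and 52.7 FPKM. RP11-841O20.2 was at 2.56 and 30.4 FPKM, a log2 ratio of -3.52, and its neighbour ERO1L, an oxidase of the endoplasmic reticulum, was at 8.99 and 28.9 FPKM, a log2 ratio of -1.67. LINC01278, CHASERR and EMSLR make up the rest of the 10. IgG values among the 10 ran from 15.1 to 947 FPKM. The limit of 1 FPKM with IMP1 keeps scarcer RNAs with such ratios out of the members.

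**Figure D3:**
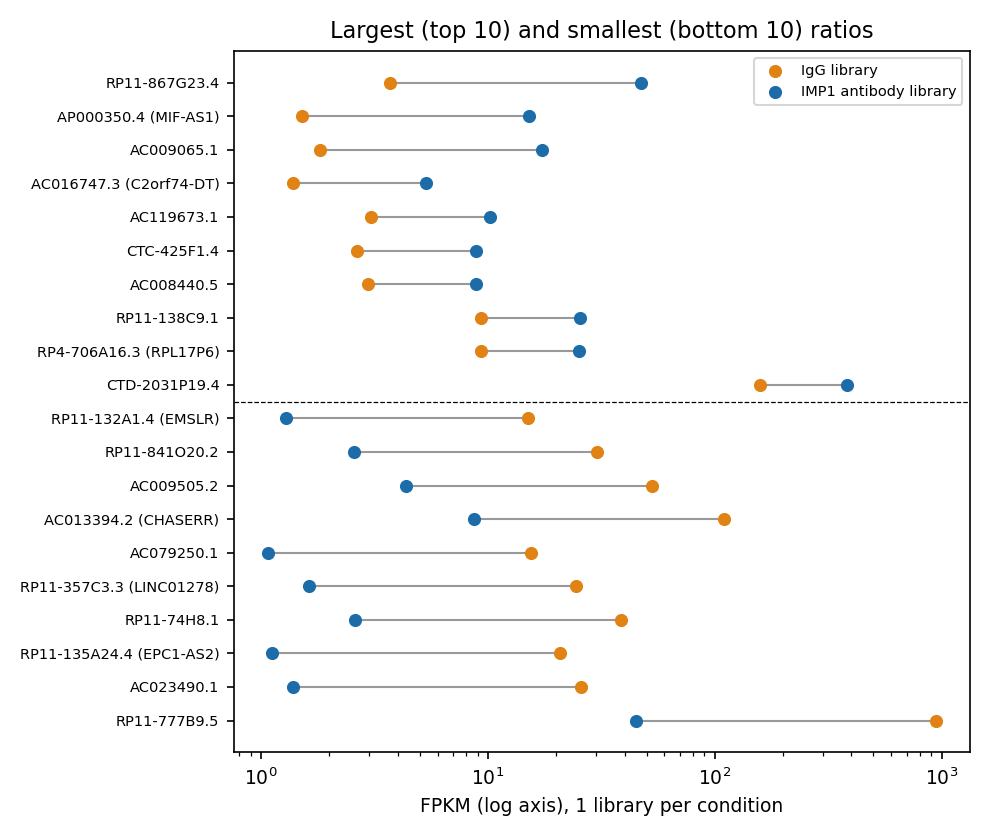
FPKM in the IgG (orange) and IMP1 antibody (blue) libraries on a log axis for the 10 members with the largest ratios (top) and the 10 with the smallest (bottom), 1 library per condition. The log2 ratios run from 3.65 for RP11-867G23.4 to -4.39 for RP11-777B9.5.

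The member with the largest ratio was RP11-867G23.4, at 47.5 FPKM with IMP1 and 3.68 FPKM with IgG (log2 ratio 3.65). It lies in the span of YIF1A, a gene of transport between the endoplasmic reticulum and Golgi, at 50.9 and 39.5 FPKM, and of the small GTPase gene RAB1B. AC009065.1, in the span of the splicing factor gene RNPS1, was at 17.3 and 1.82 FPKM, a log2 ratio of 3.17, while RNPS1 was at 24.0 and 25.9 FPKM. With MIF-AS1 these were the 3 members at least 4-fold higher, and in each the neighbour's ratio was smaller.

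Among the next members, several had a neighbour that was also above a ratio of 1. CTC-425F1.4 was at 8.85 FPKM with IMP1 and 2.64 FPKM with IgG (log2 ratio 1.71), beside the calcium-binding chaperone gene CALR at 275 and 118 FPKM, a log2 ratio of 1.21. AC119673.1 was at 10.2 and 3.04 FPKM beside NUCKS1 at 16.2 and 11.3 FPKM. AC008440.5 was at 8.84 and 2.95 FPKM, a log2 ratio of 1.55, beside MYADM with a log2 ratio of 0.99. For these 3 both the member and the neighbour had a ratio above 1, within 2-fold for NUCKS1 and MYADM.

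RP11-138C9.1 was at 25.5 FPKM with IMP1 and 9.36 FPKM with IgG (log2 ratio 1.43), whereas KPNB1 in its span, which encodes the nuclear import receptor importin beta, was at 20.8 and 28.8 FPKM, a log2 ratio of -0.47. CTD-2031P19.4 was the most abundant member in the IMP1 library, at 383 FPKM with IMP1 and 158 FPKM with IgG (log2 ratio 1.27). It shares its span with IL6ST, the common signal transducer of interleukin 6 receptors, at 26.6 and 62.3 FPKM, and with another member, CTD-2031P19.5, at 9.66 and 24.4 FPKM. The log2 ratios of these last 2 were -1.23 and -1.33, so those 2 genes were alike and CTD-2031P19.4 differed from both by more than 2 log2 units.

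Of the 17 higher members 14 shared their span with another gene and 13 had no RefSeq class. Of the 88 lower members 69 shared their span and 46 had no class. Over all members 80.6% shared their span and 60.2% had no class. Members alone in their span numbered 37, with a median log2 ratio of -1.08, 3 higher and 19 lower (51.4%). The 154 that shared one had a median of -0.74, with 14 higher and 69 lower (44.8%). Among all genes detected in both libraries 44.0% were lower and 11.5% higher. A span that holds 1 listed gene may still contain genes that the table does not list, since 7 of the 37 were longer than 50000 bases, and 12 were shorter than 1000 bases.

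Several members at high level in both libraries lay inside genes of very high expression and were close to equal between libraries. RP5-940J5.9, in the span of the glycolytic gene GAPDH, was at 139 FPKM with IMP1 and 105 FPKM with IgG (log2 ratio 0.40), and GAPDH was at 236 and 117 FPKM, a log2 ratio of 1.01. The member's level was 58.9% of that of GAPDH with IMP1 and 90.1% with IgG. XXbac-BPG252P9.9 was at 107 and 78.9 FPKM, and the tubulin gene TUBB in its span at 102 and 69.9 FPKM, with log2 ratios of 0.44 and 0.55. Reads shared with these hosts cannot be set apart in such values.

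RP11-138I1.4, in the span of the ubiquitin gene UBB, was at 62.2 FPKM with IMP1 and 66.1 FPKM with IgG. RP11-498C9.2 was at 49.0 and 37.0 FPKM beside P4HB, a protein disulfide isomerase, at 221 and 66.4 FPKM. CTD-2659N19.10 was at 49.1 and 39.2 FPKM beside the peroxiredoxin gene PRDX2 at 65.7 and 24.8 FPKM. The log2 ratios of the last pair of members were 0.41 and 0.33, and those of their hosts were 1.74 and 1.40, so the hosts were higher with IMP1 by more than 2-fold and the members were not. AL353354.2, in the span of the cochaperone gene DNAJC8, was in the other direction, at 13.4 and 61.2 FPKM with a log2 ratio of -2.18.

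The most abundant gene without a clone name in the same span, called the host here, was at 1 FPKM or more in both libraries for 103 members. Over these pairs the median log2 ratio was -0.74 for the member and -0.45 for the host, and the member was above the host in 45 pairs and below it in 58. The difference was at most 1 log2 unit in 47 pairs (45.6%), and its median size was 1.20. Across the 103 pairs Pearson's r of the log2 ratios was 0.253 and Spearman's rho was 0.267, which is a description over pairs that share both libraries and reads. For 1598 genes without a clone name set beside another gene of their span in the same way, r was 0.180, rho was 0.173 and 40.7% lay within 1 log2 unit. In level the member was below its host in 77 of 103 pairs, and at the median it had 51.1% of the host's level.

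The classes differed in how they stood to their hosts. For the 16 lncRNA pairs the median log2 ratio was -1.95 for the member and 0.02 for the host, and 13 members were below their host and 3 above. For the 75 pairs of members without a class the medians were -0.30 and -0.47, with 34 above and 41 below. Member and host had the same sign in 9 of the 16 lncRNA pairs, and some hosts were themselves at least 2-fold lower, such as CHD2 beside CHASERR, SPIN4 (log2 ratio -1.06) beside LINC01278 and BTG1 beside BTG1-DT. A further 41 members had a host under 1 FPKM in at least 1 library, and for 20 of them the host was listed at 0 with IgG.

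**Figure D4:**
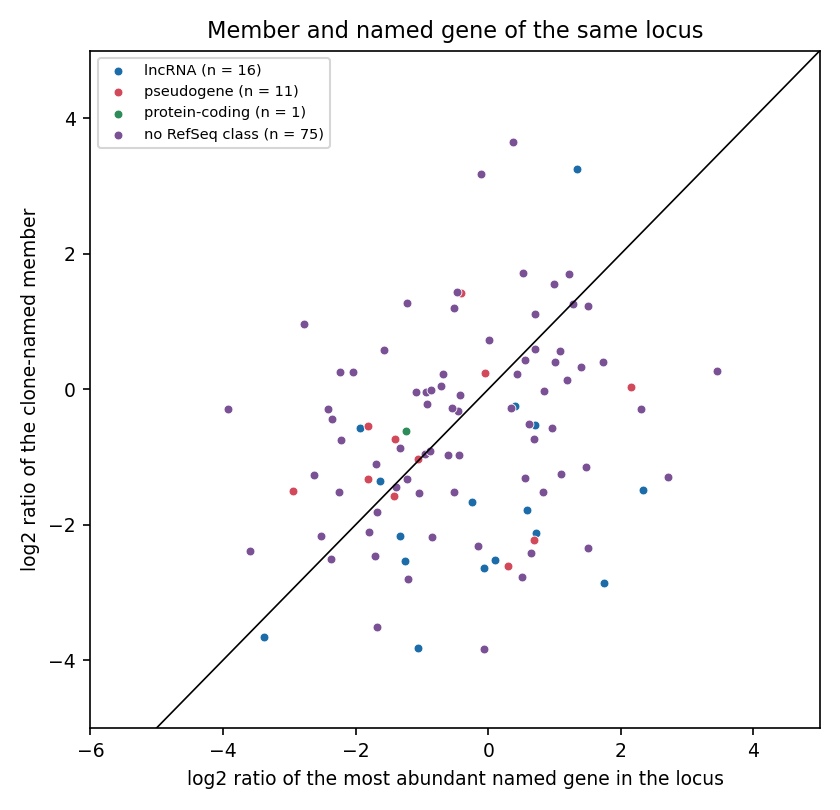
Log2 ratio (IMP1 antibody over IgG) of 103 members on the vertical axis against that of the most abundant gene without a clone name in the same span on the horizontal axis, coloured by RefSeq class, with the line of equal ratios. Points scatter widely about the line (Pearson's r 0.253 over pairs), and 13 of the 16 lncRNA pairs lie below it.

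Pseudogenes made up 38 members. Ribosomal protein pseudogenes, the commonest kind in the human genome, numbered 18, with a median log2 ratio of -0.71. Of these 2 (11.1%) were higher and 7 (38.9%) lower, beside 11.5% and 44.0% of all genes detected in both libraries. Pseudogenes of mitochondrial genes numbered 3 with a median of -1.03, and the 17 others had a median of -0.74 with 0 higher and 8 lower (47.1%). Because such copies resemble their parents closely, reads can be assigned to either, and their values are uncertain for that reason. All 18 ribosomal protein pseudogenes were under 10% of the level of the parent gene in the IMP1 library. In the IgG library RPL23AP42 was at 11.8% of RPL23A and RPSAP12 at 11.4% of RPSA, and the rest were under 10%.

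For ribosomal protein pseudogenes the median log2 ratio of the parents was 0.15, and 11 copies were below and 7 above the parent, 10 of them within 1 log2 unit. RPL10P9 (CTC-575D19.1) was at 23.9 FPKM with IMP1 and 12.9 FPKM with IgG (log2 ratio 0.89), and RPL10 was at 339 and 177 FPKM, a log2 ratio of 0.93. RPL10P16 (CTD-2192J16.15), another copy of the same gene, was at 1.63 and 7.97 FPKM, a log2 ratio of -2.23. A further copy, RPL10P6 (AC016708.2), was at 1.09 and 1.87 FPKM, a log2 ratio of -0.73. RPL10P9 thus matched its parent's ratio, RPL10P16 was more than 3 log2 units below it and RPL10P6 lay between.

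RPL17P6 (RP4-706A16.3) was at 25.1 FPKM with IMP1 and 9.28 FPKM with IgG (log2 ratio 1.43), and RPL17P7 at 22.2 and 11.7 FPKM, a log2 ratio of 0.91, compared with 331 and 298 FPKM for RPL17. RPLP0P9 (CTB-63M22.1) was at 28.1 and 13.2 FPKM, a log2 ratio of 1.08, beside RPLP0 with 0.76. RPS27P3 was at 2.09 and 13.3 FPKM, a log2 ratio of -2.61, beside RPS27 with 0.49. RPL23AP42 (RP11-3P17.3) was the most abundant of these copies in the IMP1 library, at 34.2 and 71.7 FPKM with a log2 ratio of -1.07.

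Nuclear copies of mitochondrial genes followed the order of their parents. MTCO3P12 (RP5-857K21.11) was at 129 FPKM with IMP1 and 187 FPKM with IgG (log2 ratio -0.54), beside -0.43 for MT-CO3, the mitochondrial gene of a cytochrome oxidase subunit. MTCO2P12 (RP5-857K21.7) was at 15.7 and 39.5 FPKM, a log2 ratio of -1.33, beside -1.56 for MT-CO2. MTCO2P2, another copy of MT-CO2, was at 9.10 and 18.7 FPKM with a log2 ratio of -1.03. All 3 copies and both parents were lower with IMP1.

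Of the 14 pseudogene pairs outside the ribosomal group, 7 lay within 1 log2 unit of the parent. OCLNP1 had a log2 ratio of -2.23 beside -2.08 for OCLN, a tight junction gene, and GUSBP18 (RP11-1023L17.1) had 0.61 beside 0.70 for the lysosomal enzyme gene GUSB. Others parted from their parents. SDHAP4 (AC024560.3) was at 3.44 FPKM with IMP1 and 17.0 FPKM with IgG (log2 ratio -2.27), whereas SDHA, a subunit gene of succinate dehydrogenase, was at 11.3 and 6.51 FPKM, a log2 ratio of 0.79. SEPTIN7P14 had a log2 ratio of 0.23 beside SEPT7, a cytoskeletal GTPase gene, at 5.01 and 77.1 FPKM with -3.92. Over these 14 pairs the median was 0.03 for the copies and -1.07 for the parents, and over all 32 pairs r was 0.0318. The clone-named listings of the double homeobox pseudogenes DUXAP8 (AP000525.9), DUXAP9 (AL589743.1) and DUXAP10 (CTD-2314B22.3) were lower with IMP1, at 2.48, 2.15 and 3.05 FPKM compared with 7.37, 9.21 and 8.59 FPKM with IgG, and with log2 ratios of -1.53, -2.05 and -1.46. The table has separate listings under the symbols DUXAP8, near 0 with IMP1 and at 6.91 FPKM with IgG, and DUXAP10, at 0.192 FPKM with IMP1 and 0 with IgG.

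**Figure D5:**
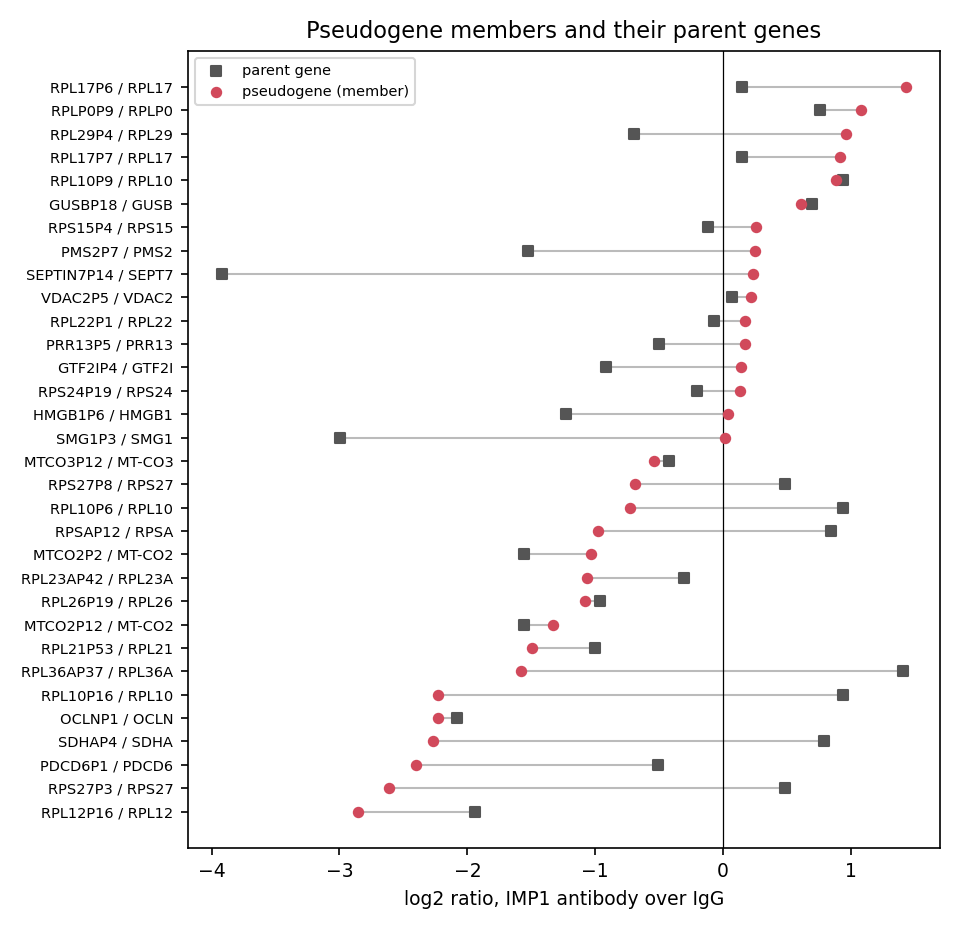
Log2 ratio (IMP1 antibody over IgG, horizontal axis) of 32 pseudogene members (circles) and of the parent gene from which each copy derives (squares), ordered by the member's ratio. The ratios of the copies run from -2.85 for RPL12P16 to 1.43 for RPL17P6, and a line joins each copy with its parent.

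The 5 members whose identifier now belongs to a protein-coding gene were all lower with IMP1, 2 of them by at least 2-fold. ZNF727 (RP11-3N2.13), a zinc finger gene, was at 2.50 FPKM with IMP1 and 6.52 FPKM with IgG (log2 ratio -1.35). The table also lists a gene under the name ZNF727 in the same span, at 0.670 FPKM with IMP1 and near 0 with IgG, a log2 ratio of 2.94. ZCCHC3 (AL034548.1), a nucleic acid binding protein of the innate immune response, was at 1.01 and 2.36 FPKM, a log2 ratio of -1.15, and the gene listed as ZCCHC3 in its span was at 1.49 FPKM with IMP1 and near 0 with IgG, a log2 ratio of 3.99. For both names the clone-named listing and the listing under the symbol went in opposite directions. NBDY (RP11-622K12.1), which encodes a microprotein of the mRNA decapping complex, was the most abundant at 18.9 and 26.2 FPKM with a log2 ratio of -0.47. The RNA exonuclease gene REXO5 (AC004381.6) was at 3.52 and 5.46 FPKM, and C17orf100 (AC004706.1) at 1.55 and 2.09 FPKM, both within 2-fold.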

How the data were processed

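RNA from an anti-IMP1 precipitate and from an IgG precipitate of T47D lysates was sequenced, 1 library each. The authors deposited 1 table of FPKM values per gene and library, with loci in hg19 per the submitters' processing notes. The aligner, the annotation, the strand setting and the FPKM software are not given in the sources used here. The table's fold changes, p-values and q-values are the authors' own comparison and were not used. Read counts are unknown, so no intervals were computed and depth per library cannot be stated. Members and gene lists were chosen with earlier results of these data known. Ratios were log2 of FPKM plus 0.1, over all genes, with no test. The ratio code was tested on simulated data. Named members were the 10 largest and 10 smallest ratios, the 10 highest levels in each library, 3 genes on each side of 1 FPKM, and members of known role with their neighbours; other lncRNA, pseudogene and host examples were chosen after their values were seen. Classes came from RefSeq through current symbols, and parents from pseudogene symbols. Alternatives changed the pseudocount, detection limit, fold, scaling and gene sets. Python 3.11.15 was used with pandas 2.3.3, numpy 2.4.6, scipy 1.17.1 and matplotlib 3.10.9.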

Additional observations from a re-analysis of the deposited data

How the results depend on the processing

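No paired analysis was possible because each antibody had 1 library and nothing was tested, and no replicate could be left out. Read depth is unknown, which limits low FPKM values most. The count of members at least 2-fold higher, 17, became 28 with detection at 0.5 FPKM, 92 with any value above 0 in both (629 genes), 45 after median scaling, 94 with equal sums and 32 with equal sums without the 50 highest genes. It was 3 among members alone in their span, 3 with a 4-fold limit and 30 with a 1.5-fold limit. The count at least 2-fold lower, 88, became 53 at 2 FPKM (130 genes), 299 above 0, 53 after median scaling, 17 with equal sums, 56 without the 50 highest genes, 19 among members alone and 47 at 4-fold. The fold limits, detection limits and gene sets set these counts by their construction, and each scaling multiplies all IMP1 values by one factor. The median log2 ratio, -0.91, was -0.70 with 1 FPKM added, -0.68 at 2 FPKM, -0.13 after median scaling, 0.95 with equal sums, -0.38 without the 50 highest genes and -1.08 among members alone. With equal sums RP11-3P17.3 reversed to 0.81, and RP5-857K21.11 (-0.54) and RP11-138I1.4 (-0.09), within 2-fold on the deposited scale, became 1.34 and 1.79. Of the 29 members named by level or ratio, 29 kept their direction and their side of the 2-fold limit with 1 FPKM added, 22 after median scaling and 20 with equal sums. In alternatives chosen after seeing the data, leaving out ribosomal and mitochondrial pseudogenes gave 15 higher and 79 lower of 170 members, and members with an identifier still in use gave 14 and 75 of 164.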

Other observations

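Clone-named genes outside the members reached high levels in 1 library while listed at 0 in the other, and are given here as values. With the IMP1 antibody AL162151.3 was at 128 FPKM, AL358134.2 at 81.7 FPKM and RP11-161H23.5 at 72.6 FPKM, each listed at 0 with IgG. With IgG AC113171.1 was at 85.0 FPKM, RP11-397A15.4 at 74.9 FPKM and GAR1-DT (RP11-602N24.3), the divergent transcript of a small nucleolar ribonucleoprotein gene, at 44.9 FPKM, each listed at 0 with IMP1. These levels exceed those of most members, and no fold is given against a listed 0.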
